A study of Danio rerio with 2 samples.

Results

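Integrin subunit genes were examined across cell classes and between control and *mgat4b* mut cells in single-cell RNA sequencing of sorted GFP+ cells from zebrafish embryos. Members were the genes whose symbol starts with itga or itgb, without the itgb1bp and itgbl symbols, that held at least 20 unique molecular identifiers (UMIs, each standing for 1 captured mRNA molecule) over both libraries. Of 33 such symbols, *itga2b* with 4 UMIs and *itgam* with 18 UMIs fell under that minimum and *itgb8*, with 93 UMIs in passing cells, was the lowest member. This left 31 of the 25432 genes in the files, 19 alpha and 12 beta subunits. Together they held 17651 control and 25950 mutant UMIs.

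Integrins are transmembrane adhesion receptors, each made of an alpha and a beta chain, that join the extracellular matrix or other cells to the actin or keratin cytoskeleton. The alpha chain largely sets the ligand. In mammals alpha3, alpha6 and the beta4 chain serve laminin receptors, alpha5, alpha8, alphav and most of the beta3 to beta8 chains serve receptors of the RGD peptide in fibronectin, vitronectin and latent TGF-beta, alpha1, alpha2, alpha10 and alpha11 serve collagen receptors, and alphaE, beta2 and beta7 mark leukocytes. Both chains carry many N-glycans, and the product of *mgat4b* adds a branch to such glycans. Neural crest cells, from which zebrafish pigment cells arise, use integrins when they migrate over fibronectin and laminin.

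Each group was 1 library from embryos at 36 h post fertilization, and the sample labels used here name no other treatment. The paper describes phenylthiourea in embryo water to keep melanin from hiding GFP. It does not say whether these embryos received it. The control carried a nontargeting plasmid and the mutant a plasmid with guides against *mgat4b*. In both, the *mitfa* promoter drove Cas9 and GFP from DNA injected at the one-cell stage, so the mutation is somatic and may be mosaic. With 1 library per group no test between groups was possible, and all intervals are 95% intervals that cover counting error only.

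After the cell filter, 1771 of 1923 control barcodes and 3860 of 4120 mutant barcodes remained, with a median of 4919 and 6480 UMIs per cell, and 2 barcode sequences occurred in both libraries. Control cells were more often shallow, 30.2% against 9.22% under 1000 UMIs. The labels call the cells melanocytes, but only 4 control and 18 mutant cells passed the gate for melanophore markers. *mgat4b* itself stood at 80.8 CPM (UMIs per 1000000 UMIs of the library or class) in control and 64.3 CPM in mutant cells, a mutant over control ratio of 0.796 (0.743 to 0.854).

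Cell classes were set by marker gates that contained no integrin gene, and the class names below are those of the marker lists. A cell of at least 2000 UMIs entered a class when it held at least 3 of that class's markers at a summed level at least 4 times that of its library. Under these gates 66.7% of control and 49.9% of mutant cells stayed without a class. A gene was called enriched in a class when its CPM was at least 2 times that of all other cells in each library with at least 20 cells of the class, on at least 10 UMIs over both libraries. Over 17 classes there were 63 such calls, and 30 of 31 members were enriched in at least 1 class. By class, 1.9% to 19% of all genes were called. The share of all genes with a call in any class was not taken, so the 30 cannot be read as particular to integrins. The class with the highest level was the same in both libraries for 25 members, counted over the 9 classes that had 20 or more cells in each. The same count over all genes was not taken.

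The laminin receptor chains were concentrated in the basal epidermis gate (58 control and 181 mutant cells), the layer that rests on the basement membrane. *itgb4*, which pairs with alpha6 in the hemidesmosomes that anchor this layer, stood at 1788 CPM in control and 1503 CPM in mutant basal cells, 13.4 and 21.4 times the level in all other cells. *itga6b* stood at 923 and 755 CPM there, 14.4 and 22.7 times the other cells. Basal cells supplied 45.2% and 54.1% of all *itgb4* UMIs from 5.78% and 5.24% of each library's UMIs. The alpha3 genes, laminin receptors of epithelia in mammals, followed the same class. *itga3b* reached 161 CPM in control and 194 CPM in mutant basal cells, and *itga3a* 32.4 and 23.8 CPM. In all, 10 of 31 members were enriched in basal epidermis, beside 6.63% of all 20349 genes tested. The call of *itga3a* was lost when the 151 basal cells that also passed another gate were left out.

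The other alpha6 genes lay elsewhere. *itga6a* was enriched only in the notochord and cartilage gate, at 49.6 CPM (32.4 to 72.6) in control and 90.8 CPM (72.8 to 112) in mutant cells, and was at 0 of 987675 UMIs in control basal cells. *itga6l*, named for its likeness to alpha6, was low throughout and was enriched in mesenchyme (16.5 and 7.79 CPM) and in notochord and cartilage (13.3 and 9.28 CPM). So of the alpha6 genes only *itga6b* passed the enrichment call in the class where *itgb4* was highest.

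*itga6b* and *itgb4* were also found in the same basal cells. With every cell thinned to 836 UMIs, control basal cells held both in 44.8% (31.7 to 58.5) of cases and mutant basal cells in 23.2% (17.3 to 30.04). At this depth the product of the separate shares was 41.9% and 26.1%, so joint detection lay close to what the separate shares give. Thinned to 4919 UMIs, the shares were 92.2% (81.1 to 97.8) of 51 control and 85.2% (77.7 to 91.0) of 122 mutant basal cells, with products of 90.3% and 84.3%, and without thinning 96.6% and 89.5%. Neurons, which should lack this pair, gave the pair in 0 of 85 control cells at 4919 UMIs (0 to 4.25, with a 3-count limit of 3.53%) and in 0.877% (0.106 to 3.13) of 228 mutant cells. In the mesenchyme gate the shares were 38.8% (25.2 to 53.8) and 13.2% (7.87 to 20.3), and the products of 23.8% and 5.94% lay below both intervals.

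**Figure D1:**
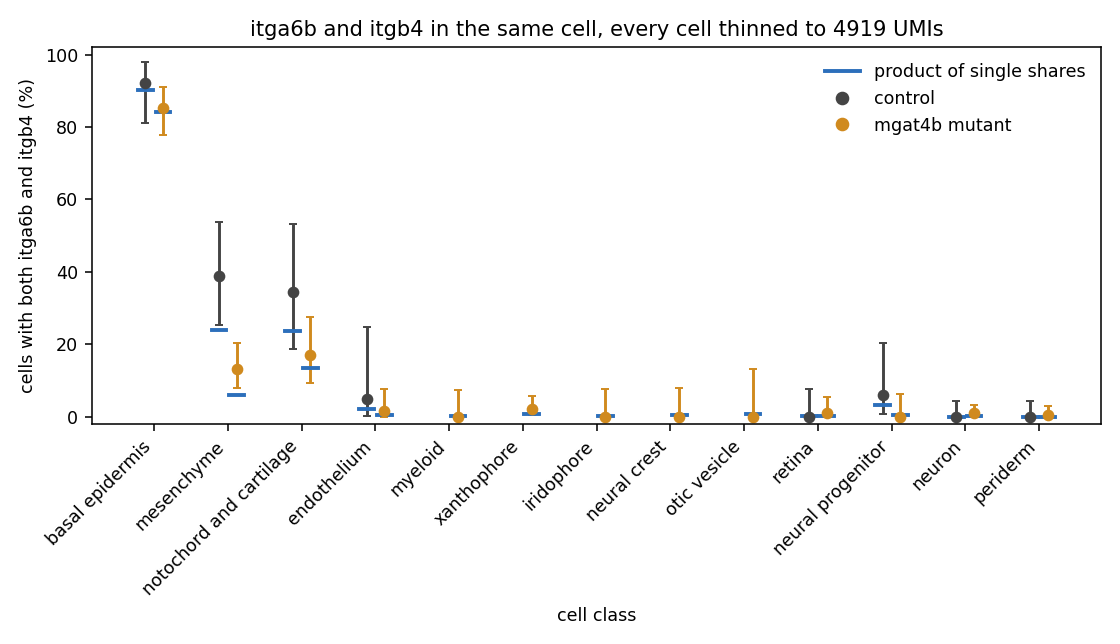
Share of cells with at least 1 UMI of both *itga6b* and *itgb4* (y axis, %), by cell class (x axis), in control (dark) and *mgat4b* mut (orange) cells thinned to 4919 UMIs each, for classes with at least 20 such cells. Bars are exact 95% binomial intervals and blue marks the product of the 2 single shares; basal epidermis stands at 92.2% and 85.2%, and neurons at 0% and 0.877%.

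Among the RGD receptor chains, *itgav*, *itgb3a* and *itgb3b* were enriched in basal epidermis. *itgav*, the alpha chain shared by vitronectin and latent TGF-beta receptors, stood at 479 CPM in control and 350.4 CPM in mutant basal cells. *itgb3a* stood at 262 and 224 CPM, 16.3 and 31.3 times the other cells, and *itgb3b* at only 10.1 and 6.27 CPM. *itga5*, the fibronectin receptor alpha chain, was enriched in endothelium instead, at 219.8 CPM (177 to 269) in control and 188 CPM (158 to 223) in mutant cells, against 70.9 and 85.9 CPM in basal cells. *itga8*, which binds nephronectin and fibronectin in mammals, was enriched in mesenchyme, at 215 and 95.1 CPM. The beta chains *itgb5*, enriched in mesenchyme at 41.9 and 42.9 CPM, and *itgb8*, enriched in retina at 5.29 and 13.9 CPM on 5 and 18 UMIs, followed no single class together. *itgb6*, a TGF-beta activating chain in mammalian epithelia, was the member without any enriched class. Its 1337 UMIs were spread over classes with levels from 0 to 47.7 CPM in control and 4.46 to 42.3 CPM in mutant classes of at least 20 cells in both libraries.

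The collagen receptor alpha chains did not share 1 class. *itga1* was highest in endothelium, at 409 CPM (350.2 to 474) in control and 459 CPM (411 to 511) in mutant cells, and was also enriched in mesenchyme (229 and 174 CPM) and in notochord and cartilage (174 and 218 CPM). The alpha10 and alpha11 genes, collagen receptors of cartilage and fibroblasts in mammals, were each enriched in the mesenchyme gate (57 and 171 cells). *itga10* was at 22.4 and 22.6 CPM there. *itga11a* was at 13.5 and 49.1 CPM in mesenchyme and was also enriched in notochord and cartilage, its highest class in control at 30.5 CPM. *itga11b* was at 43.4 and 7.01 CPM in mesenchyme. Of the 3 alpha2 copies *itga2.2* was enriched in basal epidermis, at 128 and 113 CPM, *itga2.1* was enriched in endothelium at 18.9 and 24.6 CPM, and *itga2.3* was enriched in endothelium at 18.9 and 20.5 CPM. All 3 were also enriched in the neural crest gate. These copies are near neighbours in name and possibly in sequence, so the split of reads between them is uncertain. Mesenchyme had 11 of 31 members enriched beside 4.69% of all genes, endothelium (20 and 86 cells) 8 beside 5.8%, and notochord and cartilage (38 and 86 cells) 5 beside 3.69%.

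*itga9*, which binds tenascin-C and other ligands in mammals, was enriched in endothelium and mesenchyme. It reached 359 CPM in control and 375 CPM in mutant endothelium, and 351 and 279.8 CPM in mesenchyme, while periderm held 2.78 and 15.4 CPM. *itga4*, whose product binds fibronectin and VCAM, was the 1 member enriched in xanthophores (25 and 263 cells), beside 4.77% of all genes. Its xanthophore level was 91.0 CPM (61.0 to 131) in control and 172 CPM (154 to 191) in mutant cells, 5.47 and 8.03 times the other cells, and it was also enriched in mesenchyme (82.3 and 63.1 CPM), endothelium (61.4 and 68.3 CPM) and myeloid cells. *itga1*, at 91.0 and 234 CPM in xanthophores, was called enriched there too in cells of a single gate and with CPM averaged over cells.

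The leukocyte subunits were the most narrowly placed members. The myeloid gate held 13 control and 52 mutant cells, so enrichment was called on the mutant alone, for 5 of 31 members beside 10.4% of all genes. *itgb2*, the beta chain of the phagocyte integrins, stood at 152 CPM (101 to 219) in control and 224 CPM (192 to 259.6) in mutant myeloid cells. *itgae.2* stood at 195 and 337 CPM, *itgae.1* at 347 and 242 CPM, and *itgb7*, the partner of alphaE in mammals, at 37.9 and 98.3 CPM. Their myeloid levels were 107 to 732 times those of the other cells of the same library. Myeloid cells held 73.7% and 87.8% of *itgb2* UMIs. The copies *itgae.1* and *itgae.2* may share reads.

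The 4 beta1 genes, whose products pair with most of the alpha chains above, did not share a pattern. *itgb1b.1* and *itgb1b.2* were basal genes. *itgb1b.1* stood at 262 CPM in control and 285 CPM in mutant basal cells, and *itgb1b.2* at 482 and 249 CPM. *itgb1b* was enriched in endothelium, at 52.0 and 112 CPM. *itgb1a* was enriched in notochord and cartilage (93.4 and 69.1 CPM) and mesenchyme (91.2 and 60.8 CPM) and was nearly lacking in basal cells (5.06 and 1.88 CPM). The similar symbols of the 3 b copies mark close relatives, so reads could be split among them, and their summed level is therefore given too. All 4 together stood at 799.9 CPM (745 to 858) in control and 589.8 CPM (553 to 629) in mutant basal cells, against 33.3 and 45.5 CPM in neurons.

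**Figure D2:**
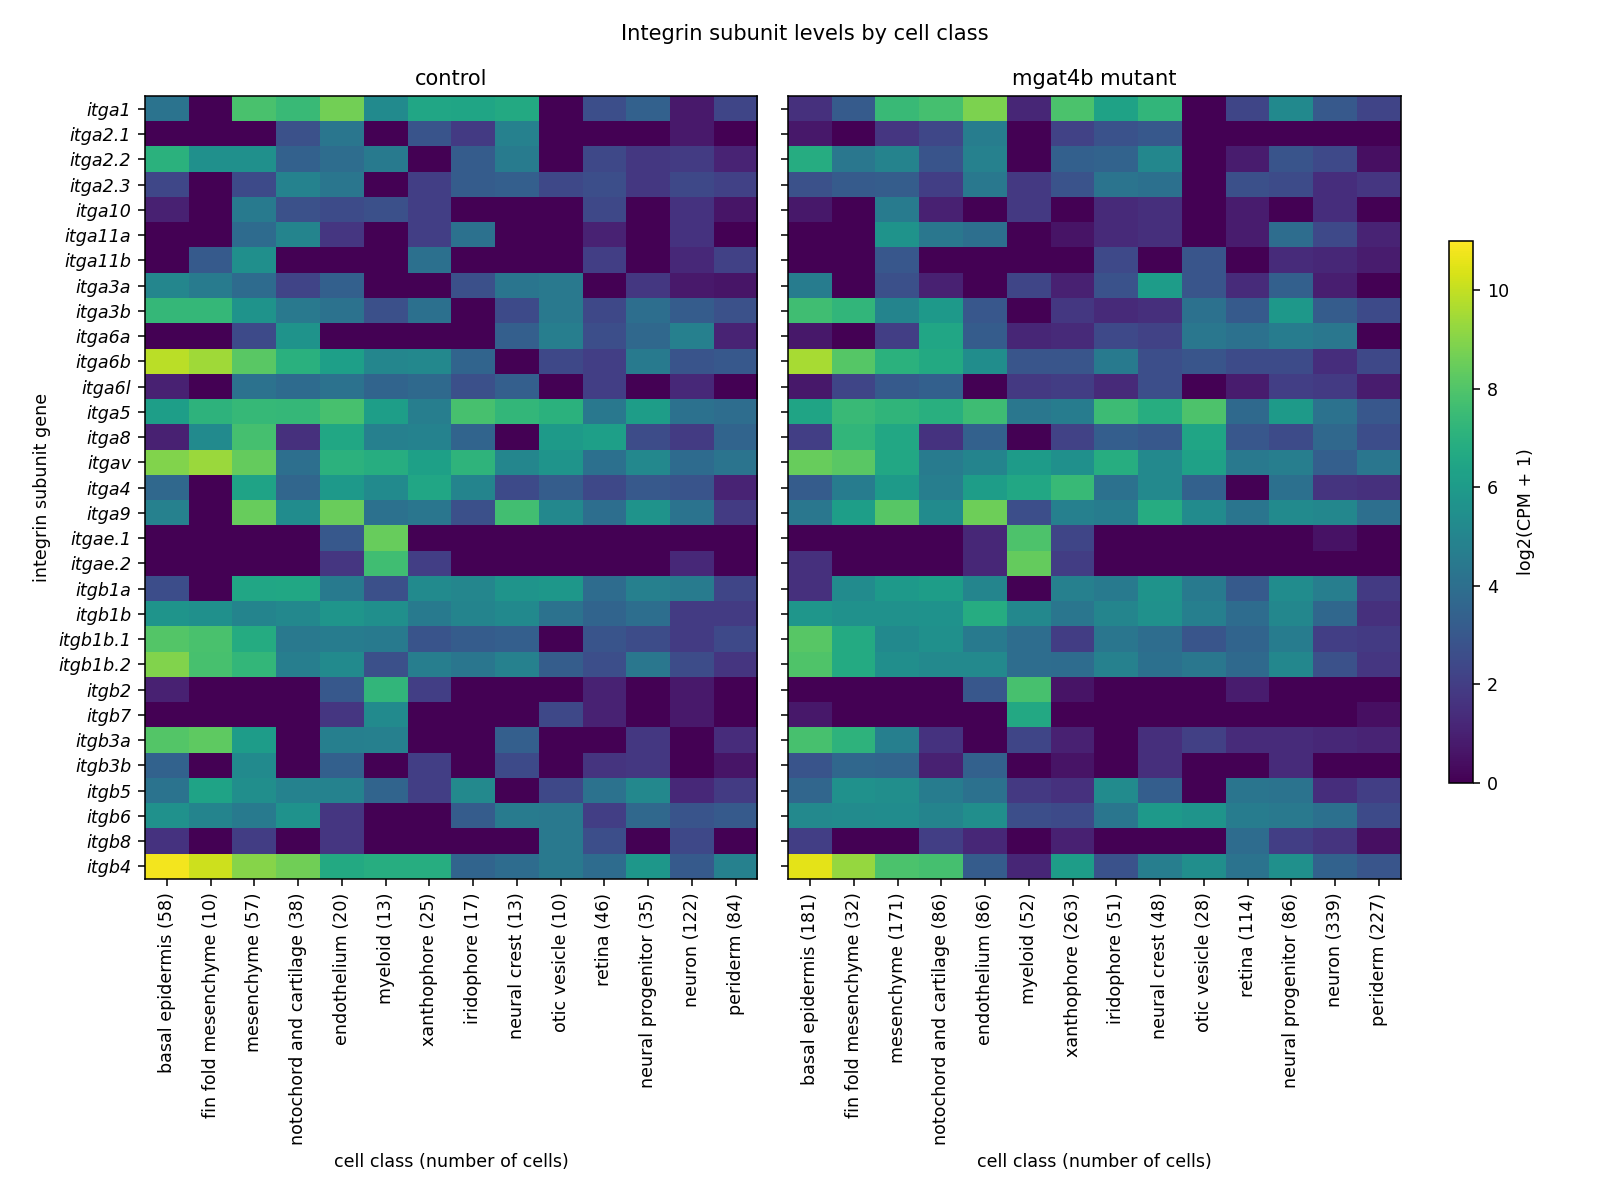
Level of each of the 31 integrin subunit genes (rows) in 14 cell classes (columns, with the number of cells), as log2(CPM + 1), in the control (left) and *mgat4b* mut (right) libraries. *itgb4* and *itga6b* are brightest in basal epidermis (1788 and 923 CPM in control), and *itgae.1*, *itgae.2*, *itgb2* and *itgb7* light up in the myeloid column.

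Iridophores and xanthophores differed in the levels of several chains, among them *itga4* and *itga5*. In the iridophore gate (17 and 51 cells) enrichment, called on the mutant alone, held for *itga2.3*, *itga5*, *itgav* and *itgb5*, 4 of 31 members beside 7.01% of all genes. All 4 calls were lost at a fold of 3. Another gate was also passed by 34 of the iridophore and 101 of the xanthophore cells. *itga5* reached 222 CPM (177 to 275) in control and 186 CPM (155 to 222) in mutant iridophores, whereas xanthophores held 25.1 CPM (10.8 to 49.5) and 23.8 CPM (17.6 to 31.6). *itgav* stood at 143 and 116 CPM in iridophores and 75.3 and 45.1 CPM in xanthophores. In iridophores *itgb5* stood at 35.2 and 38.1 CPM and *itga2.3* at 8.12 and 17.6 CPM. *itga4* showed the other order, with 29.8 and 16.1 CPM in iridophores and 91.0 and 172 CPM in xanthophores. The intervals of the 2 pigment classes did not overlap for *itga5* in either library, nor for *itga4*. How many of all genes lack such overlap is not given here. Beta chains differed too. In mutant cells thinned to 4919 UMIs, *itgb5* was found in 21.3% of iridophores and 2.01% of xanthophores, and *itgb4* in 2.13% and 25.5%.

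The neural crest gate (13 and 48 cells) had 6 members enriched in the mutant library beside 3.86% of all genes: *itga1*, *itga2.1*, *itga2.2*, *itga2.3*, *itga3a* and *itgb1a*. *itga1* stood at 100.2 CPM (62.8 to 152) in control and 149 CPM (118 to 184) in mutant crest cells, and *itgb1a* at 50.1 and 49.5 CPM. *itga3a* was at 18.2 CPM (4.96 to 46.7) and 67.2 CPM (47.6 to 92.2), a level above its 32.4 and 23.8 CPM in basal cells for the mutant only. *itga9* was at 205 and 109.7 CPM and *itga5* at 155 and 115 CPM. *itga2.1* and *itga2.3* rested on 4 and 9 mutant UMIs. *itga6b* was at 0 of 219531 control UMIs and at 3 mutant UMIs, or 5.31 CPM (1.09 to 15.5). Calls for *itga1*, *itga2.2*, *itga2.3* and *itgb1a* were lost with a gate of 1 marker fewer, and that for *itga2.1* with a gate of 1 marker more. At a fold of 3 only the call for *itga3a* remained.

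The melanophore gate was too small for a call, with 95029 control and 231390 mutant UMIs. *itga1* stood at 242 CPM (153 to 363) in the 4 control and 177 CPM (127 to 240.4) in the 18 mutant cells, and *itga5* at 199.9 CPM (120.4 to 312) and 199 CPM (146 to 265). *itga4* stood at 31.6 CPM (6.51 to 92.3) and 190.2 CPM (138 to 255), and *itga9* at 474 CPM (345 to 634) and 69.1 CPM (39.5 to 112). For *itga4* and *itga9* the counting intervals of the libraries did not overlap, but with 4 control cells the spread between cells is not covered by them, and 14 of these cells also passed another gate.

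**Figure D3:**
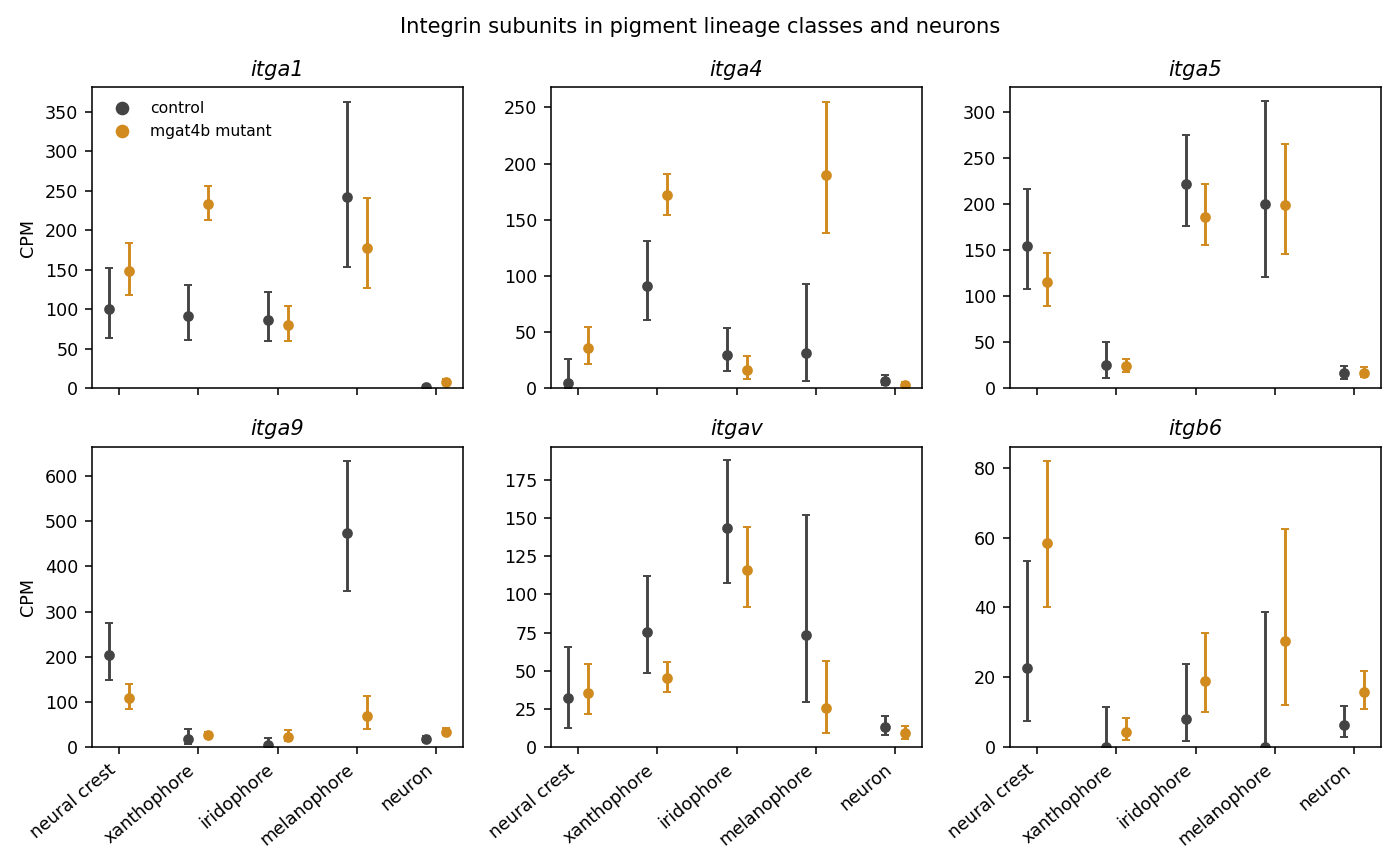
CPM (y axes, linear from 0) of 6 integrin genes in 4 pigment lineage gates and in neurons (x axis), control dark and *mgat4b* mut orange, with 95% Poisson intervals of the counts. *itga4* is high in xanthophores (91.0 and 172 CPM) and *itga5* in iridophores (222 and 186 CPM), and neurons are low for each of the 6 genes.

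Several classes held little integrin RNA. Summed over all members, basal epidermis reached 4785 CPM in control and 3938 CPM in mutant cells, mesenchyme 2957 and 1694 CPM and endothelium 1772 and 1562 CPM. In contrast, neurons held 168 and 205 CPM and the periderm, the outer epidermal layer that does not touch the basement membrane, 127 and 91.8 CPM. Neither neurons nor periderm had an enriched member, beside 19% and 6.88% of all genes, and the same held for skeletal muscle (5.46%), neural progenitors (3.25%), erythroid cells (2.07%) and the yolk or liver lipoprotein gate (1.9%). In retina *itgb8* was the 1 member called, beside 6.37%. In the otic vesicle *itga5* and *itga8* were called on the mutant alone, beside 5.61%. *itga5* was at 131 CPM in control and 241 CPM in mutant otic cells, and *itga8* at 63.4 and 86.8 CPM.

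The fin fold mesenchyme gate (10 and 32 cells) had 10 members called on the mutant alone beside 5.9% of all genes. They included *itgb4* (1132 and 608 CPM), *itgav* (641 and 289 CPM), *itga3b* (158 and 148 CPM), *itgb5* (83.0 and 46.8 CPM) and *itga8* (37.7 and 148 CPM). Its leading genes contained *frem2a*, a basal epidermal marker, and 9 keratin genes took 4.55% and 2.003% of its UMIs. These 9 are the listed 12 without *krt8*, *krt18a.1* and *krt18b*, which were left out after their levels outside the epidermis were seen. *krt18b*, for example, stood at 848 and 1064 CPM in xanthophores and 13.9 and 21.9 CPM in periderm, and *krt18a.1* at 8821 and 9779 CPM in notochord and cartilage. Of the fin fold cells 34 also passed another gate. Without them 8 cells were left, under the minimum of 20, so the 10 calls could not be checked in cells of a single gate.

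Over all passing cells, members summed to 1033 CPM in control and 852 CPM in mutant cells, a ratio of 0.825 (0.809 to 0.841). The median member had a log2 ratio of -0.10, beside -0.16 over all 20349 genes tested, so ratios are to be read against that shift. Under TMM scaling, which by design centres the ratios of most genes near 1, the median over all genes was -0.01. A gene was called between libraries when its ratio was at least 1.5 in either direction with an interval without 1. On that rule 5 members were higher in the mutant, beside 8.12% of all genes, and 8 were lower, beside 17.2%. Of all genes called, 32.1% were higher, against 48.9% with TMM scaling and 57.3% when CPM was averaged over cells. The members then gave 8 higher and 5 lower with TMM and 8 higher and 4 lower with the cell average. In such sums fewer cells of a type and less RNA per cell cannot be told apart.

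The higher members were leukocyte subunits and *itga4*. *itgb2* rose from 2.22 to 6.47 CPM, a ratio of 2.91 (2.05 to 4.23), and *itgb7* from 0.761 to 2.86 CPM, a ratio of 3.76 (2.09 to 7.34). *itgae.2* went from 3.102 to 9.85 CPM, a ratio of 3.18 (2.37 to 4.34), and *itgae.1* from 4.21 to 7.06 CPM, a ratio of 1.68 (1.28 to 2.22), but with CPM averaged over cells their ratios were 0.717 and 0.964. The myeloid gate, where all 4 were enriched, held 1.08% of control and 2.54% of mutant UMIs. *itga4* rose from 18.02 to 31.3 CPM, a ratio of 1.74 (1.53 to 1.98). Xanthophores, in which it was enriched, held 1.86% of control and 6.62% of mutant UMIs and supplied 9.42% and 36.3% of its UMIs.

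The lower members were mostly basal epidermal genes. *itgb4* stood at 229 CPM (222 to 236) in control and 145 CPM (141 to 149.8) in mutant cells, a ratio of 0.636 (0.609 to 0.664). *itga6b* stood at 114 and 71.0 CPM, a ratio of 0.623 (0.586 to 0.663). *itgav* stood at 93.6 and 54.4 CPM, a ratio of 0.581 (0.542 to 0.623). Also lower among the genes enriched there were *itgb1b.2*, 63.7 and 33.7 CPM with a ratio of 0.529 (0.486 to 0.577), and *itgb3a*, 30.3 and 18.5 CPM with a ratio of 0.610 (0.540 to 0.689). The 9 keratins moved the same way, from 41606 to 28066 CPM, with 4 lower and none higher, beside 17.2% and 8.12% of all genes. Of the 3 keratins left out after their levels were seen, *krt18b* was called higher (ratio 1.63). The other 2, *krt18a.1* (1.27) and *krt8* (1.09), were not called. The part of the keratins in the integrin ratios over all cells was not tested. With TMM scaling *itgb4*, *itga6b* and *itgb3a* were no longer called.

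The 3 other lower members were scarce. *itga11b* stood at 4.45 and 1.58 CPM, a ratio of 0.354 (0.242 to 0.515), *itga6l* at 5.44 and 2.99 CPM, a ratio of 0.549 (0.407 to 0.741), and *itgb3b* at 4.51 and 2.50 CPM, a ratio of 0.554 (0.398 to 0.771). *itgb3b* was enriched in basal epidermis too, besides mesenchyme and endothelium, and its ratio turned to 1.06 with CPM averaged over cells. The intervals of 3 members that were not called lay above 1: *itgb6* (22.1 and 31.5 CPM, ratio 1.42), *itgb1b* (21.9 and 31.2 CPM, ratio 1.42) and *itga1* (52.3 and 67.9 CPM, ratio 1.297). With TMM scaling *itgb6*, *itgb1b* and the scarce *itga2.1* were called higher.

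The remaining 15 members were not called. The intervals of 10 of them included 1 and those of the others lay below 1, as for *itga2.2* with a ratio of 0.843 (0.730 to 0.975). Their levels were 93.9 and 85.6 CPM for *itga5*, 68.8 and 68.1 CPM for *itga9*, 42.7 and 34.8 CPM for *itgb1b.1*, 32.1 and 24.01 CPM for *itga8*, 29.1 and 28.6 CPM for *itga3b*, and 28.4 and 24.4 CPM for *itgb1a*. *itga2.2* stood at 18.6 and 15.6 CPM, *itgb5* at 15.4 and 13.6 CPM and *itga6a* at 9.77 and 11.6 CPM. The other 6 (*itga10*, *itga11a*, *itga2.1*, *itga2.3*, *itga3a* and *itgb8*) lay between 1.77 and 6.86 CPM in both libraries, and their intervals all included a ratio of 1. The ratio of *itga9*, 0.990 (0.921 to 1.06), was the member ratio nearest 1.

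**Figure D4:**
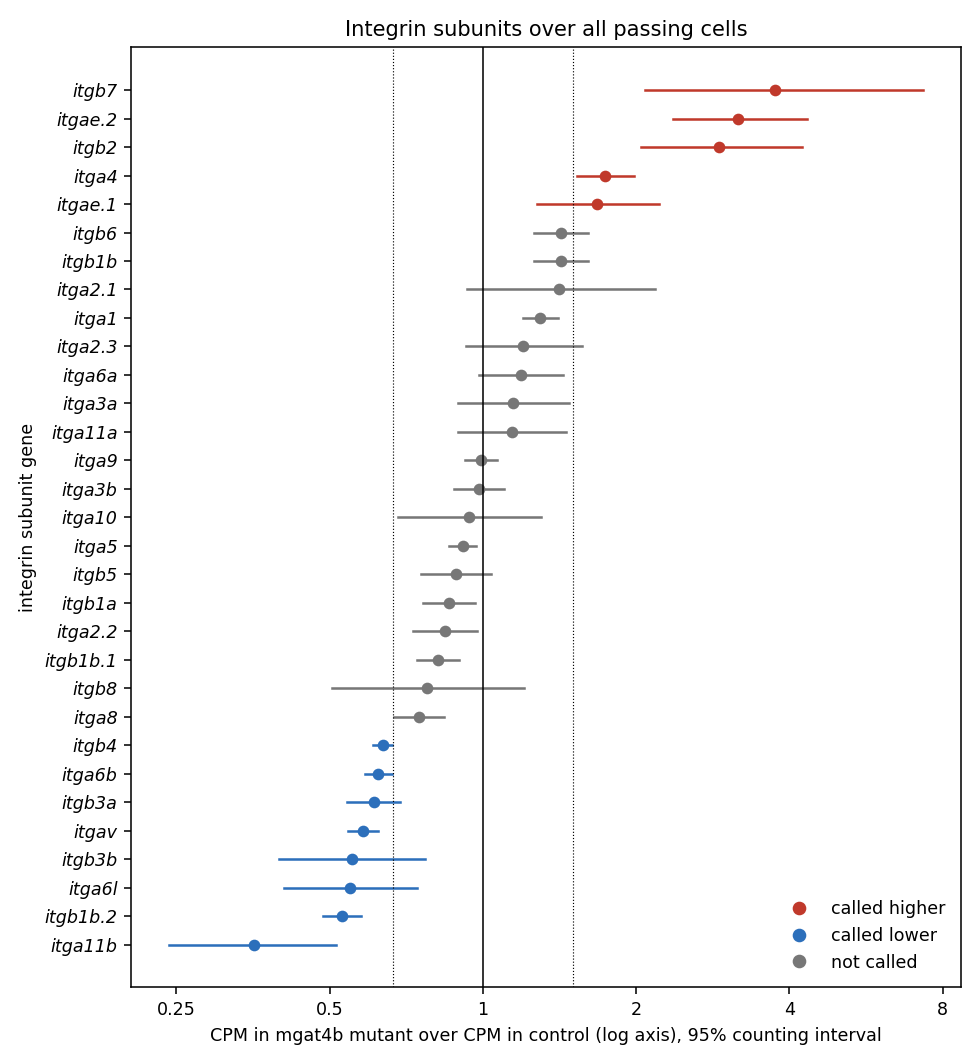
Ratio of CPM in the *mgat4b* mut library over the control (x axis, log scale) for the 31 integrin subunit genes (y axis, ordered by ratio) over all passing cells, with exact 95% counting intervals. Dotted lines mark 1.5-fold; the leukocyte genes *itgb7* (3.76), *itgae.2* (3.18) and *itgb2* (2.91) lie farthest right and *itga11b* (0.354) farthest left.

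Within classes, 9 had at least 20 cells in each library, and 17 pairs of a member and a class were higher in the mutant and 23 lower. Of all genes tested in these classes, 5.36% to 11% were higher and 8.15% to 17.3% lower, depending on the class. Mesenchyme alone held 10 of the lower pairs. In basal epidermis *itgb4* and *itga6b* were not called: their ratios were 0.841 (0.790 to 0.894) and 0.817 (0.749 to 0.892). Both intervals lay below 1, but the ratios did not reach the 1.5-fold limit. None of 17 members was called higher there and 2 lower, beside 8.64% and 8.42% of all genes, with a median log2 ratio of -0.41 beside 0.01. The gate's own markers summed to 19984 CPM in control and 16178 CPM in mutant basal cells. The part of this in the integrin ratios was not tested. *itgb1b.2* fell from 482 CPM (439.6 to 527) in control to 249 CPM (226 to 275) in mutant basal cells, a ratio of 0.518 (0.452 to 0.593), while its neighbour *itgb1b.1* stood at 262 and 285 CPM, a ratio of 1.09. The other call, *itga1* with 17 and 3 UMIs, came largely from a single cell with 70% of them, and its ratio of 0.109 became 0.578 (0.0774 to 4.32) without that cell. The 9 keratins took 9.76% of control and 7.35% of mutant UMIs in the same cells. Without the cell with most of its UMIs *itga5* was called higher in basal cells, its ratio going from 1.21 to 1.82 (1.29 to 2.61).

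In mesenchyme 10 of 22 members were lower and 1 higher in the mutant, beside 13.5% and 10.2% of all genes, with a median log2 ratio of -0.67 beside 0.01. *itgav* fell from 337 to 95.8 CPM, a ratio of 0.285 (0.227 to 0.356), and *itga8* from 215 to 95.1 CPM, a ratio of 0.441 (0.344 to 0.566). *itgb1b.2* fell from 156 to 42.9 CPM and *itgb1b.1* from 109 to 36.6 CPM. The laminin pair fell too, *itgb4* from 519 to 238 CPM and *itga6b* from 290.2 to 131 CPM. Further down were *itgb1a* (91.2 to 60.8 CPM), *itgb3a* (67.3 to 25.7 CPM), *itgb3b* (37.4 to 10.9 CPM) and *itga11b* (43.4 to 7.01 CPM). *itga11a* alone rose, from 13.5 to 49.1 CPM, a ratio of 3.65 (1.80 to 8.34). The gate's own markers were lower as well, 33325 CPM in control and 19776 CPM in mutant cells, and the part of this in the integrin ratios was not tested.

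Keratin RNA was lower too, with 2.55% of UMIs from the 9 keratins in control and 0.767% in mutant mesenchyme. The ratios were therefore taken again in the 43 control and 151 mutant mesenchyme cells with under 1% of these UMIs, a limit chosen after the values were seen. There *itgav* was at 152 and 63.8 CPM, a ratio of 0.421 (0.299 to 0.594), and *itga8* at 316 and 107 CPM, a ratio of 0.337 (0.263 to 0.432). *itgb1a*, *itgb3b*, *itga11b* and the higher *itga11a* also kept their calls. *itgb4* was at 160.4 and 98.8 CPM, a ratio of 0.616 (0.455 to 0.839) that was still called. With all 12 keratins counted, in 40 control and 146 mutant cells, *itgb4* was no longer called (0.727, 0.518 to 1.03). Under either count 4 other genes enriched in basal epidermis lost their calls. The limit leaves out the cells with most epidermal RNA, so a loss of UMIs of basal genes is built into it. Why these calls were lost was not tested. With the 9 keratins *itga6b* had a ratio of 0.659 (0.417 to 1.06), *itgb1b.2* one of 0.735 (0.360 to 1.57) and *itgb1b.1* one of 1.11 (0.379 to 3.95), and *itgb3a* had no UMI left in either library. *itga1*, at 336 and 195 CPM with a ratio of 0.580 (0.470 to 0.717), *itga4* (0.582), *itga9* (0.608) and the higher *itgb6* (3.18) and *itga2.2* (7.56, on 1 and 19 UMIs) were called in these cells and not in the whole gate. For *itga11b* a single cell held 55.3% of the mesenchyme UMIs, and its ratio of 0.162 became 0.578 (0.198 to 1.72) without that cell. Without the cell with most of its UMIs *itgb1a* was no longer called (0.730, 0.510 to 1.05). *itgb3b* turned to 1.95 when cells that passed another gate were left out.

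In xanthophores 2 of 10 members were higher and 3 lower, beside 5.36% and 12.6% of all genes. The gate's own markers were higher as well, 37760 CPM in control and 47003 CPM in mutant cells. The part of this in the integrin ratios was not tested. *itga1* stood at 91.0 CPM (61.0 to 131) in control and 234 CPM (213 to 256) in mutant xanthophores, a ratio of 2.57 (1.76 to 3.87). *itga4* had a ratio of 1.89 (1.29 to 2.86). Both held in the 22 control and 259 mutant cells with under 1% UMIs of all 12 keratins, with ratios of 2.55 (1.69 to 4.01) and 1.88 (1.24 to 2.98). The intervals of *itga4*, 61.0 to 131 and 154 to 191 CPM, did not overlap in the full gate.

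The lower xanthophore members were chains enriched in basal epidermis. *itgb4* went from 116 to 68.0 CPM, a ratio of 0.585 (0.404 to 0.866), and *itga6b* from 34.5 to 6.45 CPM on 11 and 13 UMIs. Without the cell with most of its UMIs *itgb4* was no longer called (0.743, 0.482 to 1.19), and *itga6b* had a ratio of 0.272 (0.101 to 0.806). *itgav* went from 75.3 to 45.1 CPM, a ratio of 0.599 that became 1.37 (0.691 to 3.09) without the cell with most of its UMIs. The 9 keratins took 0.282% of control and 0.0900% of mutant xanthophore UMIs. The limit of 1% on them left all 25 control and 260 mutant cells, and all 3 calls with them. With all 12 keratins counted it left 22 control and 259 mutant cells, and none of the 3 was called lower there, where *itgb4* had a ratio of 0.798 (0.506 to 1.32), *itgav* one of 1.32 and *itga6b* only 7 and 12 UMIs.

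In endothelium 2 of 17 members were higher and 4 lower, beside 10.6% and 12.1% of all genes. *itgb1b* rose from 52.0 CPM (32.6 to 78.7) to 112 CPM (89.0 to 139), a ratio of 2.15 (1.33 to 3.62). *itgb6* went from 1 to 31 UMIs, or from 2.36 to 42.3 CPM, a ratio of 17.9 (2.99 to 730.0). *itgav* fell from 132 to 30.04 CPM, a ratio of 0.227 (0.132 to 0.378). The endothelial genes *itga1*, *itga9* and *itga5* were not called, with 409 and 459, 359 and 375, and 219.8 and 188 CPM. Without its richest cell *itga9* was called higher, the ratio going from 1.05 to 1.64 (1.29 to 2.098).

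The 3 other lower endothelial members were *itgb4* (101.6 to 8.19 CPM), *itga8* (92.2 to 9.56 CPM) and *itga6b* (73.3 to 41.0 CPM). The richest cell of each gene held 61.2% of the UMIs of *itgb4*, 71.7% of those of *itga8* and 19.7% of those of *itga6b*. Without that cell *itgb4* was still called lower, its ratio going from 0.0806 to 0.250 (0.0778 to 0.704). The calls of *itga8* and *itga6b* were lost. The ratio of *itga8* went from 0.104 to 0.660 (0.190 to 2.38) and that of *itga6b* from 0.559 to 0.854 (0.465 to 1.61). The 9 keratins took 1.06% of control and 0.0840% of mutant endothelial UMIs. Among the 17 control and 86 mutant cells with under 1% of them, *itga8* and *itgav* (0.293, 0.163 to 0.515) were still called lower, *itgb4* had only 4 and 6 UMIs and *itga6b* had a ratio of 1.70 (0.760 to 4.28). With the 12 keratins *itga8* was the 1 member still called lower. The markers of the endothelium gate summed to 4577 CPM in control and 7181 CPM in mutant cells.

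**Figure D5:**
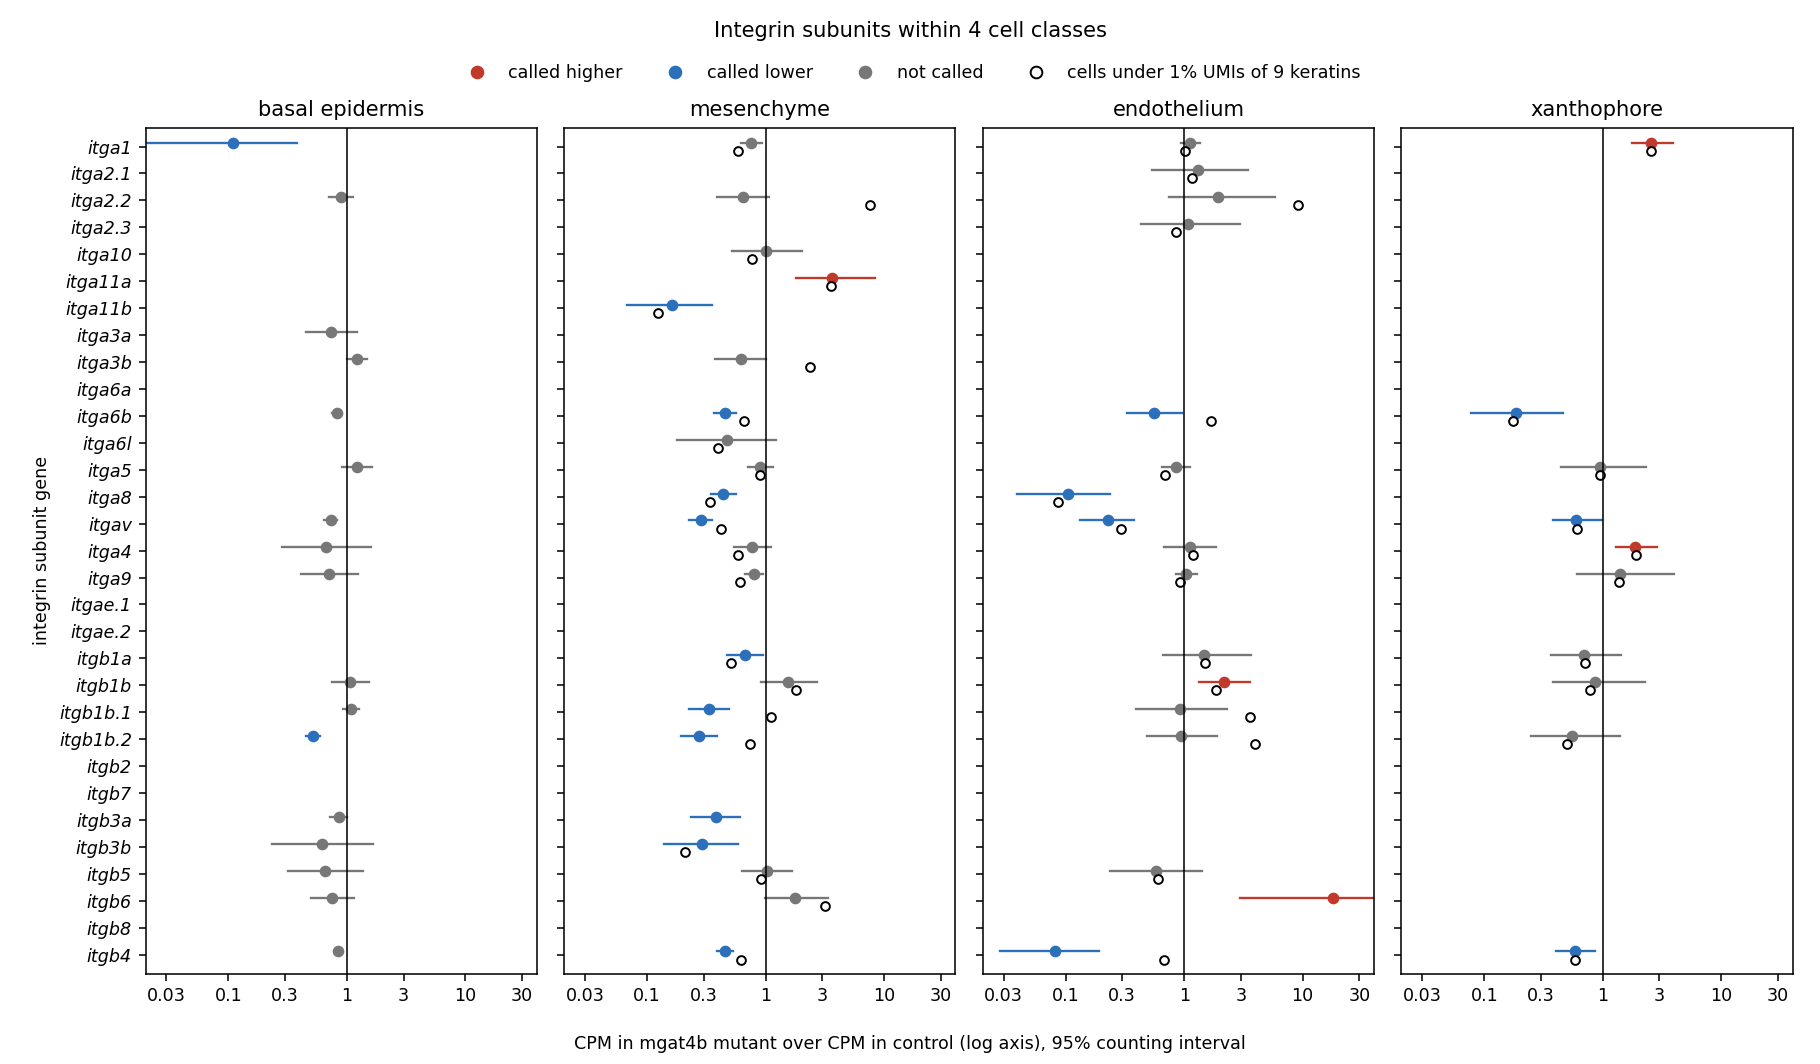
Ratio of CPM in *mgat4b* mut over control cells (x axis, log scale) for integrin genes with at least 20 UMIs (y axis) within 4 cell classes, with exact 95% counting intervals clipped at 0.02 and 40, and open circles for cells with under 1% UMIs of 9 keratins, drawn where both libraries held a UMI and not computed for basal epidermis. In mesenchyme the open circles of *itgb4* (0.616), *itga6b* (0.659) and *itgav* (0.421) lie nearer 1 than the filled ones (0.458, 0.451 and 0.285). The open circle of *itga8* (0.337) lies farther from 1 than its filled one (0.441). The limit itself takes out cells with epidermal RNA, and the cause of these moves was not tested.

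The neural and retinal classes held low levels. In neurons 4 of 11 members were higher and 0 lower, beside 7.93% and 12.2% of all genes. *itga9* went from 17.3 to 33.2 CPM, a ratio of 1.92 (1.21 to 3.15), and *itgb1b* from 2.77 to 11.8 CPM. *itga8* (2.77 to 12.2 CPM) and *itgb6* (6.24 to 15.7 CPM) lost their calls without the cell with most UMIs. The 9 keratins took 0.127% of control and 0.227% of mutant UMIs in the same neurons, and all 4 calls remained among cells with under 1% of them.

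In neural progenitors *itga1* (9.72 to 36.4 CPM) and *itga3b* (14.6 to 57.0 CPM) were higher, 2 of 11 beside 7.56% of all genes, and none was lower, beside 12.5%. Both calls were lost without the cell with most UMIs, which held 33.3% and 45.2% of them, and the ratio of *itga3b* then went from 3.91 to 1.86 and that of *itga1* from 3.75 to 2.31. *itga5*, at 68.0 and 63.3 CPM and not called, had a ratio of 4.03 (1.70 to 11.6) without its richest cell. In retina *itgb6* (3.17 to 23.2 CPM) and *itga6a* (5.29 to 16.3 CPM) were higher, 2 of 13 beside 6.41%, and *itga8* was lower, beside 17.3%. *itga8* stood at 73.0 CPM (56.8 to 92.3) in control and 6.96 CPM (3.18 to 13.2) in mutant retinal cells, a ratio of 0.0954 (0.0419 to 0.192), and without its top cell 0.143.

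In notochord and cartilage 3 of 16 members were higher and 1 lower, beside 11% and 9.71% of all genes. The markers of this gate summed to 108038 CPM in control and 83539 CPM in mutant cells. *itga6a* rose from 49.6 to 90.8 CPM, a ratio of 1.83 (1.17 to 2.96), *itga3b* from 21.0 to 59.8 CPM and *itgb1b.1* from 21.0 to 45.4 CPM, the last losing its call without 1 cell. *itgb4* fell from 387 to 214 CPM, a ratio of 0.552 (0.452 to 0.673). Its call held among the 35 control and 82 mutant cells with under 1% of the 9 keratins (0.526, 0.428 to 0.645). With all 12 keratins, of which *krt18a.1* and *krt8* were high in this class, 13 control and 33 mutant cells were left, in which *itgb4* had 1 and 29 UMIs and a ratio of 12.3 (2.04 to 503). In periderm *itga9* rose from 2.78 to 15.4 CPM, 1 of 8 beside 9.76%, and *itgb4* and *itga5* fell, 2 of 8 beside 8.15%. Both of these lower values came mainly from few cells, since without the cell with most UMIs the ratio of *itgb4* went from 0.235 to 1.64 and that of *itga5* from 0.478 to 0.939.

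Ligand genes of these receptors were counted by the same rule. Over all cells 1 of 13 tested RGD ligand genes was higher and 2 lower, beside 8.12% and 17.2% of all genes. In mesenchyme 2 of 11 were higher and 4 lower, beside 10.2% and 13.5%, with *fn1b* among the lower ones. In basal epidermis 5 of 10 tested RGD ligand genes were higher in the mutant and none lower, beside 8.64% and 8.42% of all genes. *fn1a*, a fibronectin gene, went from 140 to 350.4 CPM, a ratio of 2.51 (2.08 to 3.04), and *fn1b*, the other fibronectin gene, from 1349.6 to 2160.1 CPM, a ratio of 1.60 (1.502 to 1.71). *thbs1b*, a thrombospondin, and *edil3a*, which binds alphav integrins in mammals, had ratios of 1.56 (1.38 to 1.76) and 1.52 (1.22 to 1.90). In xanthophores the same list had 6 of 8 genes lower, beside 12.6% of all genes, where 6 of 9 tested keratins of the 12 were also lower. Among the 6 ligand genes was *fn1a*, from 160.1 to 7.94 CPM on 51 and 16 UMIs. All 6 were enriched in mesenchyme, and no gene of the list was enriched in xanthophores. The xanthophore gate held 25 control cells, and 101 of its cells over both libraries also passed another gate. The cause of the lower values was not tested.

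Adaptors and hemidesmosome partners were also counted. Of 31 adaptor and focal adhesion genes 2 were higher over all cells (*vcla* and *fermt3b*, the kindlin of blood cells) and 5 lower, beside 8.12% and 17.2% of all genes, with a median log2 ratio of -0.03 beside -0.16. The lower ones included *src*, from 82.8 to 48.2 CPM, and *ptk2ab*, a focal adhesion kinase gene, from 66.8 to 38.5 CPM. Of 6 hemidesmosome partners *cd151*, a tetraspanin bound to laminin integrins, went from 7.49 to 19.9 CPM, and the collagen XVII genes *col17a1a* (36.5 to 16.7 CPM) and *col17a1b* (12.2 to 3.94 CPM) were lower. *cd151* was enriched in xanthophores and skeletal muscle, not in basal epidermis. Xanthophores supplied 25 of its 128 control UMIs and 310 of its 607 mutant UMIs. The part of this in its ratio was not tested. The collagen XVII genes are among the basal gate's markers. Cadherins and catenins had 2 of 18 genes higher and 4 lower, beside the same shares of all genes, with a median log2 ratio of -0.21. By class, 8 of 31 adaptors were enriched in basal epidermis, beside 6.63% of all genes, as were *pleca*, *plecb* and *cd151l*, 3 of the 4 hemidesmosome partners that are not markers of the gate. Endothelium also had 8 of 31 adaptors enriched, beside 5.8% of all genes. The fin fold mesenchyme gate, called on the mutant alone, had 8 as well, beside 5.9%, and *pleca*, *plecb* and *cd151l* were enriched there too.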

How the data were processed

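Single-cell 3′ RNA libraries of sorted GFP+ cells, 1 control and 1 *mgat4b* mutant, were analysed from the deposited matrices of UMI counts per gene and barcode. The authors made these counts with Cell Ranger (version 7.2.0 per the file headers) on genome build GRCz11, whose filtered barcodes were deposited without normalization. UMIs of the 3′ end are not scaled by gene length, so levels were compared within a gene. The study's cell filter was applied, more than 200 detected genes and less than 5% of UMIs from mitochondrial genes. UMIs were summed per library or class and given as CPM with exact Poisson intervals, ratios with exact conditional binomial intervals and shares with Clopper-Pearson intervals, all at 95%. Depth was 17088324 control and 30447310 mutant UMIs. A count of 0 was read as allowing up to 3 counts.

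Of 215 markers of 22 classes 213 were in the files. Cells that passed several gates went to the class with the highest score (log2 level times number of markers), a rule set after class sizes and depths were seen. At least 2 gates were passed by 464 cells. Doublets were neither called nor removed, and the clusters of the study were not used here. Log2 ratios used a prior of 0.5 UMI. Genes with at least 20 UMIs entered a comparison. Values are printed for members with at least 200 UMIs or any call. Members, markers and gene lists were chosen with earlier results of these data known, and a count of a list is no independent evidence. The result of 1 of the ligand lists is not reported here. The calling step was tested on simulated data. Alternatives were TMM scaling (edgeR 4.0.16 on R 4.3.3), other totals, filters, gates, thresholds, thinning depths and single cells left out. Other steps used Python 3.11.15, numpy 2.4.6, scipy 1.17.1 and pandas 2.3.3.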

Additional observations from a re-analysis of the deposited data

Results flagged for a closer look

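A few genes were called in opposite directions in different classes, and no difference between classes was tested, since each group was 1 library. *itga1* had mutant over control ratios of 2.57 in xanthophores and 3.75 in neural progenitors but 0.109 in basal epidermis, where 20 UMIs carried the value. Without the richest cell the calls in neural progenitors (2.31) and basal epidermis (0.578) were lost. *itga8* had ratios of 0.441 in mesenchyme, 0.104 in endothelium and 0.0954 in retina but 4.42 in neurons, and without the richest cell the calls in endothelium (0.660) and neurons (2.85) were lost. *itgb1b.1* had a ratio of 0.335 in mesenchyme and 2.16 in notochord and cartilage. The first was 1.07 and 1.11 in cells with under 1% UMIs of 12 and of 9 keratins, and the second lost its call without 1 cell (1.80, 0.896 to 3.92).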

How the results depend on the processing

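No paired analysis was possible because each group was 1 library. The following settings were added after the data were seen: gates from 1000 UMIs for the class levels, cells with under 1% keratin UMIs by all 12 keratins, and the same by 9. The counts of 5 higher and 8 lower members over all cells became 8 and 5 with TMM scaling, 8 and 4 with CPM averaged over cells and 3 and 1 with a 2-fold limit. The median log2 ratio of -0.10 became 0.0527 with TMM, 0.0613 with CPM averaged over cells, -0.0291 without mitochondrial and ribosomal protein genes, -0.0616 without the 5% of cells with most UMIs and -0.13 with a prior of 5 UMIs. The 63 class calls became 39 at a fold of 3. The 17 higher pairs of a member and a class became 8 at 50 UMIs and 26 with the looser gate, and the 23 lower ones 16 without each gene's richest cell, a setting in which 8 pairs gained a call. Joint detection of *itga6b* and *itgb4* in control basal cells, 44.8%, was 92.2% at 4919 UMIs and 96.6% without thinning, and in mutant basal cells, 23.2%, it was 85.2% and 89.5%, and 14.9% in cells of a single gate. These moves with depth come with the thinning itself.

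Directions turned in 13 cases. Without the richest cell *itgav* in xanthophores had a ratio of 1.37 and *itgb4* in periderm 1.64. In cells of a single gate *itgb4* in periderm had 1.55 and *itgb3b* in mesenchyme 1.95. With CPM averaged over cells *itgae.1* had 0.964, *itgae.2* 0.717 and *itgb3b* 1.06. Among cells under 1% of 12 keratins *itgav* in xanthophores had 1.32, *itgb1b.1* in mesenchyme 1.07, *itga6b* in endothelium 1.36 and *itgb4* in notochord and cartilage 12.3. Among cells under 1% of 9 keratins *itgb1b.1* in mesenchyme had 1.11 and *itga6b* in endothelium 1.70. The causes were not tested. For lack of control UMIs 4 ratios could not be computed with 12 keratins and 2 with 9, and *itga1* in neural progenitors had none in cells of a single gate.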
